A study of Arabidopsis thaliana with 18 samples.

Results

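The transcript response of wild type Arabidopsis leaves to a herbicide safener spray was read from 6 of the 18 arrays of the study, 3 of plants sprayed with safener and 3 of plants sprayed with mock. The other arrays were of the mutants tga2tga3tga5tga6 and sid2-2, sprayed with safener or mock. All 18 arrays entered the main fit, so its standard errors (SE) and adjusted p values also rest on the spread among the mutant arrays. The 6 wild type arrays were chosen by their titles. All 6 hybridized RNA from rosette leaves of the ecotype Col0, wild type in genotype, grown on soil for 4 weeks with 16 h of light a day. The safener plants received 875 µL per pot of a formulation that held mefenpyr at 5 mM and isoxadifen at 7.2 mM in agrotin with an emulsifier, applied by airbrush. The mock plants received an equal volume of DMSO, the solvent of the safener stocks. Whether the mock spray also held agrotin and the emulsifier, how long after the spray the leaves were taken, and how many plants made up a sample are not stated in the labels. The comparison is therefore that of the whole formulation with mock, and the effects of mefenpyr and isoxadifen cannot be told apart.

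Safeners protect a crop from herbicide injury, in cereals chiefly by raising the enzymes that detoxify the herbicide. Plant detoxification runs in stages: cytochrome P450 enzymes and reductases modify a foreign compound, glutathione transferases and UDP-glycosyltransferases (UGTs) attach glutathione or a sugar, and membrane transporters carry the product into the vacuole or out of the cell. In Arabidopsis, TGA transcription factors and their partner SCL14 are known to act on a set of such genes after chemical stress.

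An intensity is the deposited signal of a probe set, a group of probes for 1 transcript, on a scale on which the median listed value of each array is 200. Each array listed an intensity for 14627 to 15617 of 22746 probe sets and left the others blank (31.3% to 35.7%). Blanks were treated as missing. Probes differ in how well they bind, so signals are compared between arrays and not between genes. Pearson's r of log2 intensity over probe sets, which are not independent of each other, was 0.986 to 0.994 between mock arrays, 0.981 to 0.992 between safener arrays and 0.937 to 0.968 between the groups. Safener replicate 1 had the most blanks and the lowest r with its group, and results that turn on it are given without it as well. The leaf label was borne out by the mesophyll markers: RCA, the activase of Rubisco, was listed at intensities of 4178, 4491 and 4645 on the mock arrays and 3566, 4258 and 4213 on the safener arrays. PRK was listed on all 6 arrays as well and not called, and the antenna gene LHCB4.2, also on all 6, was lower (log2 -0.73). The root markers EXPA7, AT3G01190 and AT5G17820 were blank on all 6 arrays, while the fourth, PYK10, was listed at intensities of 343, 371 and 318 on the mock arrays and 266, 328 and 255 on the safener arrays and was not called. The guard cell markers AT1G04800 and FMA were not called either, and the phloem marker SWEET11 was lower (log2 -0.35, adjusted p = 0.0147, and 0.0664 without safener replicate 3). In a bulk leaf, fewer cells of a type and less RNA per cell cannot be told apart.

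Of 14704 probe sets with at least 2 listed values in each group, 2190 (14.9%) were higher and 2548 (17.3%) lower with safener at an adjusted p under 0.05 (limma, Benjamini-Hochberg over all probe sets tested). These shares are the background for every gene group below. Without a fold limit more were lower than higher, and larger changes went up more often. The first was reversed without safener replicate 1, with 2113 higher and 1700 lower. With the 6 wild type arrays alone the counts were 1884 and 1748, and in every other alternative more were lower. In the main fit, 440 (2.99%) were higher and 111 (0.755%) lower at least 2-fold, and at least 4-fold, 66 (0.449%) were higher and 1 (0.0068%) lower. That single strongly lowered probe set has no gene name in the annotation used here, and without a fold limit 4738 probe sets (32.2%) were called in either direction, while 6342 (43.1%) were at an unadjusted p under 0.05. The excess of 2-fold increases was seen at each level of expression, from 7 increases and 5 decreases among the 501 probe sets with a mean log2 intensity under 5 to 26 and 2 among the 1299 at 10 or above. All 3 safener arrays lay above all 3 mock arrays for 2786 (20.2%) and below them for 3335 (24.2%) of the 13780 probe sets listed on all 6 arrays.

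**Figure D1:**
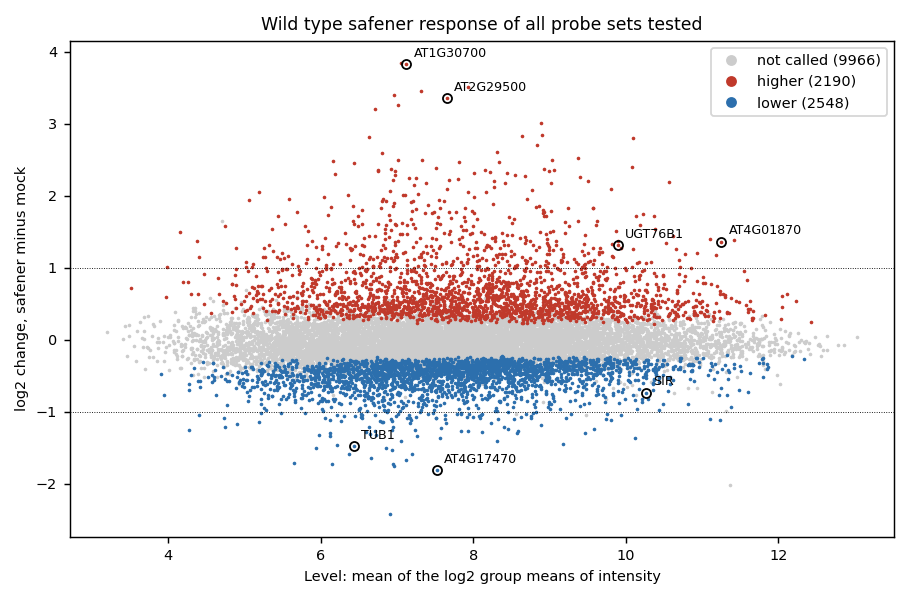
Change against level for the 14704 probe sets tested in wild type. The x axis is the mean of the log2 group means of intensity, the y axis the log2 change from mock to safener, each point a probe set, red for the 2190 called higher and blue for the 2548 called lower. Dotted lines mark a 2-fold change, past which 440 red and 111 blue points lie.

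Genes were ranked only among probe sets that name 1 gene, which were 223 of the 440 raised at least 2-fold. A probe set that names no single gene rose by log2 3.84. The 15 genes so ranked with the largest increases and values on all 6 arrays included several enzymes of oxidative and sugar metabolism, a transporter, a small heat shock protein and proteins of unknown role. AT1G30700, which codes for a berberine bridge enzyme-like oxidase, was listed at intensities of 30.1, 46.2 and 35.4 on the mock arrays and 453, 567 and 544 on the safener arrays. The lowest safener value was far above the highest mock value, and the change was 14.2-fold (log2 3.82, SE 0.20, adjusted p = 6.31e-10). AT2G32190, a short protein with a cysteine-rich transmembrane module, was listed at intensities of 44.5, 56.9 and 41.4 on the mock arrays and 725, 423 and 454 on the safener arrays. Safener replicate 1 stood above the other safener arrays, and the lowest safener array was still well above every mock array (log2 3.46, SE 0.29, adjusted p = 6.98e-08). The same was seen for AT1G56060 of the same family, at 149.6, 199 and 177 with mock and 1875, 1034 and 1014 with safener (log2 2.85, SE 0.26, adjusted p = 1.65e-07).

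AT4G33420, a class III peroxidase of the cell wall, was listed at intensities of 26.3, 45.4 and 41 on the mock arrays and 267, 207 and 309 on the safener arrays (log2 2.82, SE 0.21, adjusted p = 1.8e-08). B120, a receptor-like kinase with a lectin domain, was listed at intensities of 59.4, 41.1 and 37.3 on the mock arrays and 256, 283 and 274 on the safener arrays (log2 2.59, SE 0.19, adjusted p = 1.28e-08). AT4G39670, a protein of the glycolipid transfer family, already had mock values of 261, 299 and 267 with mock and 1502, 1682 and 1571 with safener (log2 2.52, SE 0.18, adjusted p = 1.15e-08). The groups did not overlap for any of these genes, a condition of the rule that named them. AT1G19020, whose role is not established, had 539, 459.9 and 419.9 with mock and 3021, 2410.2 and 2068 with safener (log2 2.39, SE 0.21, adjusted p = 8e-08). AT5G59490, a hydrolase of the haloacid dehalogenase superfamily, rose from 57.6, 59.9 and 48.3 with mock to 373, 236 and 249 with safener (log2 2.35, SE 0.28, adjusted p = 3.81e-06). AT2G16900 and AT3G54150 also rose, with log2 changes of 2.34 and 2.29.

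**Figure D2:**
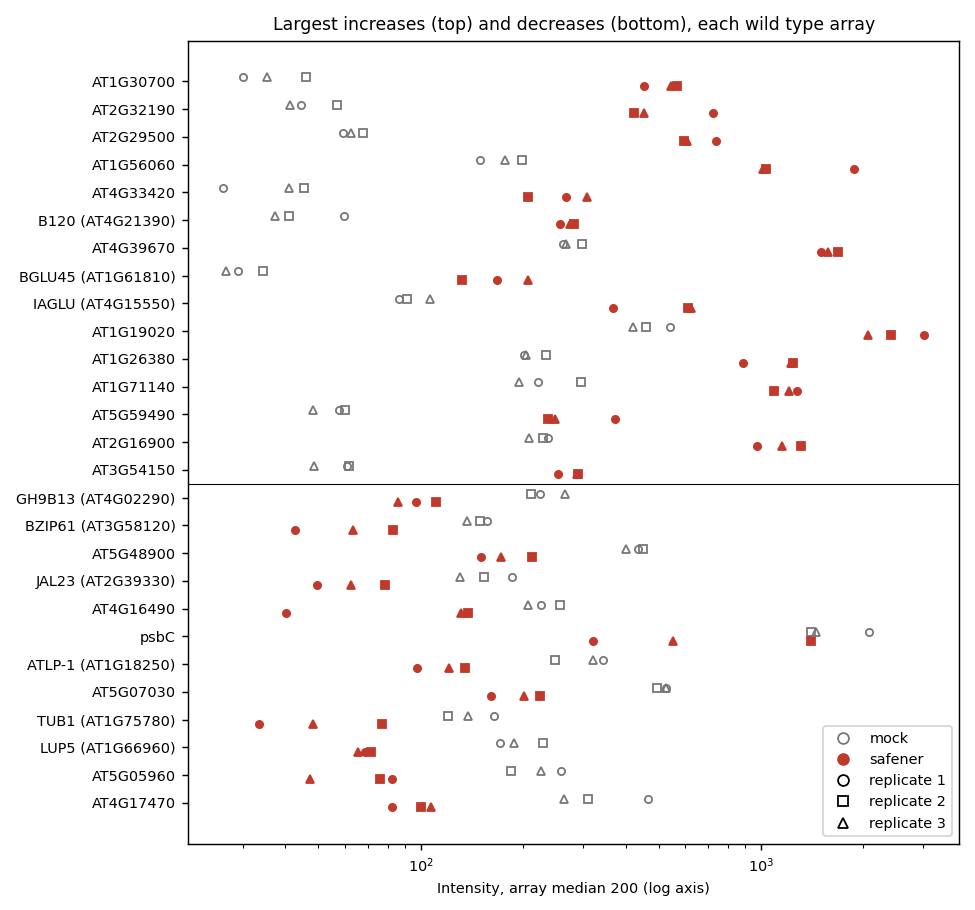
Intensity on each wild type array for the 15 genes with the largest increases (above the line) and the 12 with the largest decreases (below it) among called genes listed on all 6 arrays with groups that did not overlap, so that genes with a blank, such as AT4G37290, CML37 and DFR, are not shown. The x axis is intensity on a log scale, open grey symbols are mock arrays, filled red symbols safener arrays, and the symbol shape gives the replicate. Every red symbol of the upper genes lies right of the grey ones, and for psbC safener replicate 2, at 1398, lies next to mock replicate 2, at 1400.4.

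Of the 111 probe sets lowered at least 2-fold, 52 name 1 gene, and a probe set that names no single gene had log2 -2.42. Among probe sets of 1 gene listed on all 6 arrays, the 12 largest decreases were smaller in size than the increases. AT4G17470, of the alpha/beta-hydrolase family, was listed at intensities of 466, 309.8 and 264 on the mock arrays and 82.5, 100.3 and 107 on the safener arrays. The safener arrays lay close together and all below the mock arrays, of which replicate 1 was the highest (log2 -1.81, SE 0.24, adjusted p = 1.75e-05). AT5G05960, of the lipid transfer protein family, had 259, 185 and 226 with mock and 82.6, 76.2 and 47.4 with safener (log2 -1.73, SE 0.19, adjusted p = 2.19e-06). LUP5, an enzyme that cyclises oxidosqualene to triterpenes, had 172, 228 and 188 with mock and 68.6, 71.6 and 65.4 with safener (log2 -1.51, SE 0.14, adjusted p = 6.41e-07), the tightest safener values of these genes. The aspartyl protease family gene AT5G07030 had 525, 495 and 525 with mock and 161, 224 and 202 with safener (log2 -1.41, SE 0.15, adjusted p = 1.2e-06). AT5G48900, of the pectate lyase family, had 435, 449 and 401 with mock and 149.9, 212 and 172 with safener (log2 -1.28, SE 0.12, adjusted p = 2.67e-07). Both showed no overlap of groups. The jacalin lectin JAL23 (log2 -1.31) and the armadillo repeat gene AT4G16490 (log2 -1.34) fell as well, and safener replicate 1 was the lowest array for both, at 49.6 and 40.3. Over the 100 probe sets lowered at least 2-fold and listed on all 6 arrays, the median log2 distance from the mock mean was -1.32, -0.97 and -1.20 on safener replicates 1, 2 and 3, and replicate 1 was the lowest array for 62. Over the 416 raised ones the medians were 1.33, 1.36 and 1.39, so the arrays differed less in the increases.

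Among the enzymes that modify foreign compounds, P450 genes moved both ways, and of 12 reductases 5 rose and 1 fell. Of 12 P450 genes tested, of 24 named on the array, 3 rose, 3 fell and the median log2 change was 0.06. All gene lists hold only probe sets that name 1 gene, 13513 of 22746. Family members without such a name are therefore not counted, here or below. Members were matched by locus or by annotated name, so some that do name 1 gene are missing too, among them genes changed at least 2-fold. The counts are of the lists and not of whole families. CYP71B22 was listed at intensities of 140.2, 129 and 122 on the mock arrays and 326, 367 and 309.7 on the safener arrays (log2 1.36, SE 0.10, adjusted p = 1.58e-08). CYP71B6 had 948, 996 and 939 with mock and 1659, 1484 and 1516 with safener (log2 0.69, SE 0.13, adjusted p = 0.000405). CYP78A9, known as a regulator of organ size, was listed at intensities of 155, 168 and 155 on the mock arrays and 84.3 and 77.8 on the safener arrays, with safener replicate 1 blank (log2 -0.98, SE 0.15, adjusted p = 0.000132). The groups overlapped for CYP71B28, which was not called (log2 0.02).

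In the list of aldo-keto, alkenal and short-chain reductases, enzymes that reduce reactive carbonyls, 5 of 12 rose, 1 fell and the median log2 change was -0.16, with the other 7 members all below zero. AT1G09500, of the cinnamyl alcohol dehydrogenase-like family, was listed at intensities of 80.5, 49.6 and 73.4 on the mock arrays and 283, 226 and 302 on the safener arrays (log2 2.01, SE 0.19, adjusted p = 2.87e-07). The short-chain reductase AT3G04000 had 165, 177 and 169 with mock and 398, 406 and 429 with safener (log2 1.27, SE 0.15, adjusted p = 4.53e-06), and AT4G13180 of the same class had 675, 488 and 639 with mock and 892, 1322 and 1314 with safener (log2 0.96, SE 0.14, adjusted p = 3.94e-05). The groups did not overlap for these genes, and the 3 safener values of AT3G04000 were within a narrow range. The lowered member, ATB2 (log2 -0.32), was not called without safener replicate 3 or mock replicate 1 or 3. The alkenal reductase AOR was not called, at 393, 337 and 531 with mock and 322, 301 and 351 with safener (log2 -0.35). Of 8 aldehyde dehydrogenases 2 rose and 1 fell. ALDH2C4, which makes ferulic and sinapic acids, had 2292, 2480.3 and 2374 with mock and 3287, 3611 and 3366 with safener (log2 0.52, SE 0.09, adjusted p = 0.000161), and ALDH7B4, a stress-responsive member, had 949.9, 971 and 829 with mock and 1252, 1284 and 1308 with safener (log2 0.49, SE 0.12, adjusted p = 0.00395). The lowered ALDH22A1 (log2 -0.40) lost its call in 4 alternatives, among them the one without safener replicate 1 (adjusted p of up to 0.14).

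Among the conjugating enzymes, a few UGTs rose strongly and most of the family moved little. Of 31 UGTs tested, of 52 named, 8 rose, 4 fell and the median log2 change was 0.09, beside a median of -0.06 over all probe sets tested. IAGLU, which glucosylates the auxin indole-3-acetic acid, was listed at intensities of 86.3, 91.2 and 106 on the mock arrays and 368, 612 and 624 on the safener arrays (log2 2.46, SE 0.16, adjusted p = 5.12e-09). Safener replicate 1 was the lowest of the safener arrays and still well above mock. UGT73B5, a glucosyltransferase of stress responses, had 94.7, 111 and 93.8 with mock and 286, 485 and 387 with safener (log2 1.92, SE 0.15, adjusted p = 3.25e-08). UGT76B1, which glucosylates salicylic acid and isoleucic acid, was the most even, with 630.2, 614 and 565 with mock and 1456, 1521 and 1508 with safener (log2 1.31, SE 0.19, adjusted p = 5.06e-05). UGT84A3, of the hydroxycinnamate group, rose less, to 334, 449 and 462 from 223, 297 and 298 (log2 0.60). UGT74B1 of glucosinolate synthesis had overlapping groups, 966, 985 and 938 with mock and 719, 1167 and 1069 with safener. Without safener replicate 1 the counts were 12 and 2, and 2 fell without mock replicate 3. UGT73C7 and UGT71B5 were listed on each safener array and on no mock array.

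Of 10 glutathione transferases tested, of 14 named, 2 rose and 1 fell (median log2 0.07). GSTU25 was listed at intensities of 151, 219 and 124 on the mock arrays and 528, 342 and 379 on the safener arrays (log2 1.35, SE 0.31, adjusted p = 0.00405). Its groups did not overlap, at 165 ± 48.8 with mock and 416 ± 98.6 with safener (mean ± SD, n = 3 each). GSTF4 had 54.8, 55.5 and 68.5 with mock and 93.6, 99.1 and 85.4 with safener (log2 0.64, SE 0.13, adjusted p = 0.00107), and GSTU20 fell from 1918, 1596 and 1899 with mock to 1221, 1323 and 1178 with safener (log2 -0.54, SE 0.14, adjusted p = 0.00751). Without safener replicate 1, or without mock replicate 3, 2 members fell. Among the named members tested, these shares of glutathione transferases and of P450 genes were not far from those over all probe sets. GSTU23 was listed on all mock arrays and no safener array.

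Of the listed transporters that could export conjugates, those of the MATE family gave the clearest increases. Of 7 members of the transporter list tested, 3 rose and 0 fell, with a median log2 change of 0.35. That list does not hold the whole MATE family. AT5G38030, a MATE gene missing from it and chosen after its values were seen, was lower with safener (log2 -1.05). AT1G71140 was listed at intensities of 221, 295 and 195 on the mock arrays and 1279, 1095 and 1209.8 on the safener arrays (log2 2.35, SE 0.14, adjusted p = 1.94e-09). AT3G23550 had 272, 355 and 299 with mock and 764, 729.8 and 939 with safener (log2 1.39, SE 0.13, adjusted p = 2.87e-07), and AT1G33110 had 253, 350.0 and 294 with mock and 618, 751 and 815 with safener (log2 1.29, SE 0.14, adjusted p = 1.41e-06). The groups of all 3 were apart. AT2G04050, which was not called, had overlapping groups, 504, 544 and 567 with mock and 562, 665 and 641 with safener (log2 0.21).

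The list of xenobiotic response genes known from work on TGA factors and SCL14 shares members with the families above. All 9 of its members tested rose, with a median log2 change of 1.07 and log2 changes from 0.59 (UGT73C1) to 1.92 (UGT73B5), and all 9 rose without any 1 of the 6 arrays. The list was written with general knowledge of such responses and with earlier results of these arrays known, so its direction is no independent evidence. AT4G01870 was listed at intensities of 1384, 1768 and 1400.0 on the mock arrays and 3070.3, 4380.3 and 4317 on the safener arrays. The safener arrays were all higher, with replicate 2 the highest (log2 1.36, SE 0.17, adjusted p = 6.11e-06). AER, the alkenal reductase that acts on lipid-derived reactive aldehydes, had 319.6, 276 and 262 with mock and 563, 627 and 605 with safener (log2 1.07, SE 0.13, adjusted p = 1.58e-05). The tenth member, UGT73B4, was listed on 1 mock array and all 3 safener arrays and had no log2 change.

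The berberine bridge enzyme-like family, flavin-dependent oxidases of which some act on sugar oligomers and some on indolic defence compounds, was raised in 8 of 12 members tested, of 20 named (1 lower, median log2 1.12). The other 8 were blank on at least 2 arrays of a group. AT1G26380, which in Arabidopsis takes part in making indolic cyanogenic compounds, was listed at intensities of 202, 233 and 204 on the mock arrays and 886, 1242 and 1223 on the safener arrays (log2 2.38, SE 0.15, adjusted p = 3.09e-09). Its neighbour AT1G26390 had 416, 300.2 and 300.4 with mock and 1595, 1568 and 1481 with safener (log2 2.21, SE 0.19, adjusted p = 8.09e-08). AT4G20860, an oxidase of cellodextrins, had 297, 260.1 and 246 with mock and 728, 938 and 981 with safener (log2 1.71, SE 0.18, adjusted p = 6.77e-07). The groups of these genes were apart by more than the range within either. AT1G26380, AT1G26390, AT1G26410 and AT1G26420 carry adjacent locus numbers and similar sequences, so probes may bind more than 1 of them. The lowered AT5G44410 (log2 -0.56) had overlapping groups and was not called without safener replicate 3 or mock replicate 1 or 3. AT2G34810, which was not called, had 361, 272 and 248 with mock and 266, 343 and 399 with safener (log2 0.19).

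Of the 9 class III peroxidases listed and tested, secreted enzymes that oxidise wall phenolics, 5 rose and 1 fell (median log2 0.34). The list misses some peroxidases, such as AT5G19880, which was higher (log2 1.53, chosen after its values were seen). It also misses AT4G11290, which had values on the mock arrays only. Prx37 was listed at intensities of 71.4, 98.6 and 74.3 on the mock arrays and 292, 208 and 278 on the safener arrays (log2 1.67, SE 0.25, adjusted p = 5.87e-05). AT5G64120 had 474, 719.6 and 538 with mock and 874, 1083 and 1028 with safener (log2 0.80, SE 0.15, adjusted p = 0.000589). The count rested on small changes of AT4G08780 and AT2G22420 (log2 0.59 and 0.27), and 3 rose without any 1 safener array or without mock replicate 1. AT2G37130 fell, at 471, 593 and 517 with mock and 318, 297 and 274 with safener (log2 -0.82, SE 0.13, adjusted p = 0.000114). Of 11 beta-glucosidases, which release aglycones from glucosides, 3 rose and 1 fell. BGLU45, an enzyme of monolignol glucosides, was listed at intensities of 29.1, 34.3 and 26.8 on the mock arrays and 168, 132 and 207 on the safener arrays (log2 2.47, SE 0.27, adjusted p = 1.62e-06). Its close relative BGLU46 had 20.8, 19.5 and 16.8 with mock and 41.4, 47.1 and 48.6 with safener (log2 1.27, SE 0.19, adjusted p = 4.61e-05). In both genes every safener array was above every mock array. The third, BGLU25 (log2 0.69), was not called without mock replicate 1 (adjusted p = 0.057), and the lowered BGLU44 was not called without that array or without safener replicate 1 or 3.

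Of 13 heat shock proteins and co-chaperones tested, 10 rose and 0 fell, with a median log2 change of 0.72, and between 8 and 10 rose when 1 array was left out. The cytosolic small heat shock protein gene AT2G29500 was listed at intensities of 58.9, 67.6 and 62.2 on the mock arrays and 737, 594 and 605 on the safener arrays. The mock arrays were close together and the safener arrays far above them, 10.2-fold by the fit (log2 3.36, SE 0.24, adjusted p = 3.25e-08). Hop3, a co-chaperone that links HSP70 and HSP90, was blank on 1 mock array and otherwise listed at intensities of 19.2 and 14.7 on the mock arrays and 47.9, 76.4 and 73.6 on the safener arrays (log2 1.94, SE 0.19, adjusted p = 1.2e-06). AT5G48570, a peptidyl-prolyl isomerase of the FKBP family, had 74.6, 81 and 81.9 with mock and 196, 237 and 223 with safener (log2 1.46, SE 0.15, adjusted p = 5.77e-07). Fes1A, a nucleotide exchange factor of HSP70, had 175, 204 and 202 with mock and 425, 487 and 498 with safener (log2 1.28, SE 0.12, adjusted p = 2.32e-07). The groups of these genes did not overlap where listed. The relatives Hop1 and Fes1C were not called (log2 0.05 and -0.17). The small heat shock genes AT1G53540 and AT1G52560 were listed on each safener array and on no mock array.

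Of the endoplasmic reticulum list, the membrane-bound transcription factors BZIP60 and BZIP28, which start the unfolded protein response, were called higher. BZIP60 had 861, 769 and 784 with mock and 924, 1296 and 1232 with safener (log2 0.50, SE 0.12, adjusted p = 0.00288), and BZIP28 (log2 0.37) had overlapping groups and lost its call in 5 alternatives (adjusted p of up to 0.106). The folding protein gene CRT1b was not called (log2 0.25). In the autophagy list 3 of 11 rose and 0 fell (median log2 0.07). ATG8H, a ubiquitin-like protein of autophagosome membranes, had 163, 164 and 154 with mock and 323, 365 and 411 with safener (log2 1.18, SE 0.13, adjusted p = 1.76e-06). Its paralogue ATG8B had 170.0, 129 and 134 with mock and 295, 269 and 266 with safener (log2 0.94, SE 0.16, adjusted p = 0.000191). Safener values of both were above all mock values, while ATG8F had overlapping groups, 1761, 1782 and 1710.4 with mock and 2012, 1667 and 1638 with safener (log2 0.01). Of 6 ubiquitin ligases of the plant U-box and ATL families tested, 4 rose and 0 fell (median log2 0.66), also without any 1 safener array. PUB23 and PUB24, which in Arabidopsis damp responses to microbial patterns, had log2 changes of 1.13 (adjusted p = 3.38e-05) and 0.71 (adjusted p = 1.01e-05). PUB23 was listed at intensities of 78.5, 95.5 and 72.9 on the mock arrays and 161, 193 and 185 on the safener arrays. ATL8, the most raised of the 4, had 100.2, 124 and 121 with mock and 275, 268 and 273 with safener (log2 1.25, SE 0.16, adjusted p = 1.22e-05).

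**Figure D3:**
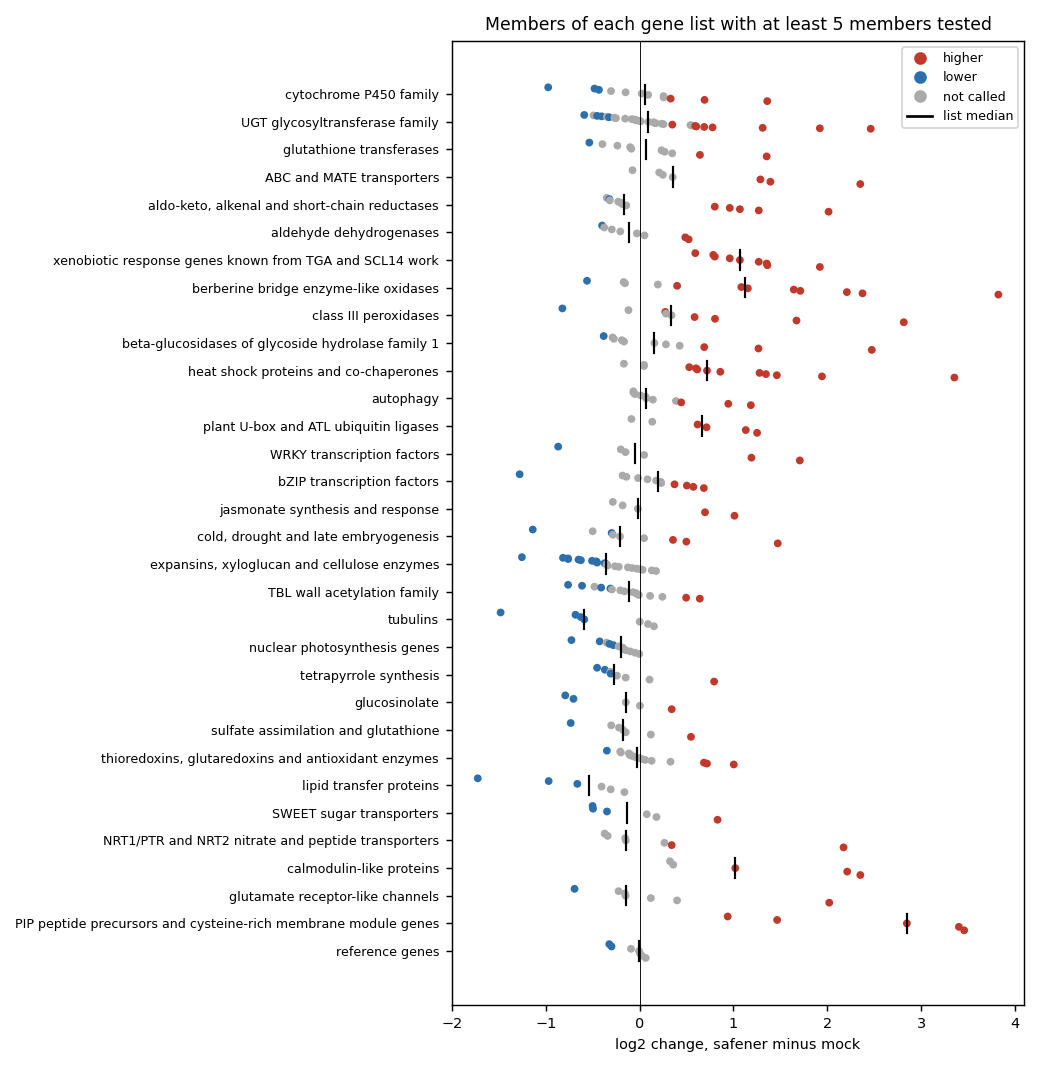
The log2 change from mock to safener (x axis) of each member tested, for the gene lists with at least 5 members tested except the plastid genes. Points are genes, red where called higher, blue where called lower and grey where not called, and black bars mark list medians. The medians of the calmodulin-like (1.02), xenobiotic response (1.07) and berberine bridge (1.12) lists lie to the right, and those of the tubulins (-0.59) and lipid transfer proteins (-0.54) to the left.

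Signalling genes showed some of the largest steps. The list of PIP peptide precursors, which give rise to secreted immune peptides, and of cysteine-rich membrane module genes had 5 members tested, and all 5 rose (median log2 2.85). AT4G37290 was blank on 1 mock array and otherwise listed at intensities of 39.1 and 36.2 on the mock arrays and 500.0, 279 and 451 on the safener arrays (log2 3.40, SE 0.30, adjusted p = 1.59e-07). AT1G05340 had 252, 364 and 281 with mock and 965, 735 and 766 with safener (log2 1.47, SE 0.23, adjusted p = 8.21e-05), and AT2G23270, of the peptide precursors, had 114, 122 and 93.9 with mock and 247, 178 and 209 with safener (log2 0.94, SE 0.18, adjusted p = 0.000788). No safener value of these was as low as any mock value. Several members were put on the list because earlier results of these arrays had shown them raised, so the count of 5 is a description. Of 5 calmodulin-like calcium sensors 3 rose. CML38 was listed at intensities of 64.5, 62.7 and 45.7 on the mock arrays and 299.9, 246 and 249 on the safener arrays (log2 2.21, SE 0.18, adjusted p = 4.09e-08). CML37, blank on 1 mock array, had 47.5 and 47.1 with mock and 290.2, 211 and 230.5 with safener (log2 2.35, SE 0.17, adjusted p = 3.19e-08), and CML42 had 112, 119 and 117 with mock and 257, 216 and 235 with safener (log2 1.02, SE 0.15, adjusted p = 4.51e-05). CML30 and CML41 were not called (log2 0.32 and 0.36). Among 7 glutamate receptor-like channels, ATGLR1.2 stood apart from the others at 70.8, 87.8 and 73 with mock and 332, 276 and 331 with safener (log2 2.02, SE 0.18, adjusted p = 1.59e-07), while GLR1.4 fell (log2 -0.69) and the remaining 5 were not called. Without safener replicate 1 a further member was called higher.

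Of 6 WRKY transcription factors 2 rose and 1 fell. WRKY6, known from senescence and phosphate responses, was listed at intensities of 166, 239 and 184 on the mock arrays and 657, 647 and 596 on the safener arrays (log2 1.71, SE 0.15, adjusted p = 7.92e-08). WRKY22, which acts in immune signalling, had 35.6, 53.6 and 46.4 with mock and 87.1, 109.8 and 110.1 with safener (log2 1.19, SE 0.15, adjusted p = 5.77e-06), and WRKY47 had 111, 151 and 174 with mock and 66.7, 92.4 and 78.2 with safener (log2 -0.87, SE 0.14, adjusted p = 0.000125). WRKY42 was listed on each safener array and on no mock array, and WRKY53 had overlapping groups (log2 0.05). Of 12 bZIP factors 4 rose and 1 fell. BZIP53, which acts in the response to low sugar, had 542, 487 and 506 with mock and 718, 788 and 774 with safener (log2 0.57, SE 0.09, adjusted p = 0.000113), and BZIP61 had 157, 149.5 and 137 with mock and 42.7, 83.1 and 63.1 with safener (log2 -1.28, SE 0.21, adjusted p = 0.000164), with safener replicate 1 the lowest array. The TGA family itself was not analysed here.

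In the salicylic acid list 2 of 3 members rose, UGT76B1, described above, and GRX480. The glutaredoxin GRX480, a partner of TGA factors, had 245, 249.8 and 197 with mock and 375, 402 and 356 with safener (log2 0.72, SE 0.15, adjusted p = 0.00157), and SAG101 of immune signalling was not called (log2 -0.11). The jasmonate list had 2 of 5 members called higher, the defensins PDF1.2 and PDF1.2b. PDF1.2 was listed at intensities of 258, 226 and 277 on the mock arrays and 846, 299 and 523 on the safener arrays. Safener replicate 1 was far above the others, and without it neither gene was called (adjusted p = 0.0742 and 0.0883, which was also the highest over the alternatives for each). The PDF1.2b probe set is of a type that may bind other transcripts, so the pair may not be separate measurements. In the auxin list IAGLU and IAA18, a repressor of auxin response, were higher (188, 217 and 220.2 with mock and 299.5, 351 and 299 with safener for IAA18, log2 0.60). GH3.3, which conjugates auxin to amino acids, fell, at 203, 249.6 and 204 with mock and 95.5, 89.7 and 131 with safener (log2 -1.07, SE 0.17, adjusted p = 0.000147). GH3.17, an enzyme of the same kind, was listed on all mock arrays and no safener array. A second lower member was called without mock replicate 1.

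In the cold, drought and late embryogenesis list 3 of 9 rose and 2 fell. COR15A, a cold-induced chloroplast protein, was listed at intensities of 179.6, 137 and 179 on the mock arrays and 77.8, 59.3 and 88.8 on the safener arrays (log2 -1.14, SE 0.22, adjusted p = 0.000716). AT2G46140, of the late embryogenesis abundant family, went the other way, at 152, 149 and 148 with mock and 420.1, 408 and 418 with safener (log2 1.47, SE 0.12, adjusted p = 3.85e-08). The groups of both were apart, and RD2 rose slightly (log2 0.50). COR47 (log2 -0.30) lost its call in 5 alternatives, with the highest adjusted p, 0.112, without safener replicate 1. In the list of pathogenesis-related, chitinase and thaumatin genes, the osmotin OSM34 had 110.1, 127 and 101 with mock and 175, 196 and 224 with safener (log2 0.81, SE 0.22, adjusted p = 0.00849) and the thaumatin-like ATLP-1 had 344, 248 and 320.2 with mock and 97.2, 135 and 121 with safener (log2 -1.37, SE 0.16, adjusted p = 2.4e-06). The chitinases ChiC and CHI were not called (log2 0.17 and 0.20).

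The redox and sulfur lists included few changes. Of the 16 thioredoxins, glutaredoxins and antioxidant enzymes listed 3 rose and 1 fell (median log2 -0.02), shares near or below those over all probe sets. These shares are of the list and not of the whole families. The glutaredoxin genes AT2G47880 (log2 1.19) and AT4G15680 (log2 1.01), missing from it and chosen after their values were seen, were higher. ATMDAR2, a monodehydroascorbate reductase that regenerates ascorbate, was listed at intensities of 1009, 1269 and 1255 on the mock arrays and 1861, 2832 and 2456 on the safener arrays (log2 1.00, SE 0.13, adjusted p = 1.15e-05). TY1, a chloroplast thioredoxin, had 99.3, 77 and 84.9 with mock and 135, 132 and 152 with safener (log2 0.68, SE 0.12, adjusted p = 0.000295). The chloroplast ascorbate peroxidase TAPX was lower (log2 -0.35) but not without safener replicate 1 (adjusted p = 0.0523). In the sulfate and glutathione list, the glutathione reductase GR1 had 1030.3, 1009 and 1174 with mock and 1630.2, 1452 and 1608 with safener (log2 0.55, SE 0.14, adjusted p = 0.00484). SIR, which reduces sulfite to sulfide, had 1661, 1553 and 1502 with mock and 689, 1135 and 1073 with safener (log2 -0.74, SE 0.15, adjusted p = 0.0011). The groups of both were apart, in opposite directions, and the other 5 members were not called. Of the mitochondrial NAD(P)H dehydrogenases, NDB2 had 931, 1149 and 997 with mock and 1489, 1899.5 and 1901 with safener (log2 0.78, SE 0.12, adjusted p = 5.75e-05), while NDB1 was lower (log2 -0.39) with overlapping groups and lost its call in 4 alternatives, one of them without safener replicate 1.

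Nitrate, peptide and sugar transporters gave 1 strong increase. AT1G59740, of the NRT1/PTR family, was listed at intensities of 78.5, 73.5 and 79.4 on the mock arrays and 389, 249 and 434 on the safener arrays (log2 2.17, SE 0.17, adjusted p = 3.21e-08). GTR2, a glucosinolate importer of the same family, was higher by log2 0.34 and lost that call in 3 alternatives, so 1 of 7 rose without safener replicate 2 or 3. SWEET2, a vacuolar sugar transporter, rose to 121, 78.7 and 118 from 52.1, 51.3 and 75 (log2 0.83, SE 0.18, adjusted p = 0.00171). SWEET17, a fructose transporter of the same membrane, had 345, 291 and 335 with mock and 193, 253 and 244 with safener (log2 -0.50, SE 0.12, adjusted p = 0.00481). With SWEET11 and SWEET16, 3 of 6 members fell, and 1 fell without safener replicate 3. SWEET16 lost its call in 5 alternatives, with the highest adjusted p, 0.19, when safener replicate 1 was left out. In the glucosinolate list BCAT4, of methionine chain elongation, and AOP1 fell, at log2 -0.71 and -0.79 (adjusted p = 0.00169 and 0.00063). The flavonoid gene DFR, which acts in anthocyanin synthesis, was listed at intensities of 122, 62.3 and 92.2 on the mock arrays and 27.8 and 26.2 on the safener arrays (log2 -1.72, SE 0.32, adjusted p = 0.000707). It was blank on safener replicate 1.

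Part of the genes of the cell wall and the cytoskeleton fell. Of 24 expansins, xyloglucan enzymes, endoglucanases and cellulose synthase-like genes tested, of 52 named, 12 fell and 0 rose, with a median log2 change of -0.36, and 10 to 12 fell when 1 array was left out. GH9B13, an endoglucanase, was listed at intensities of 225, 211 and 266 on the mock arrays and 96.9, 111 and 85.7 on the safener arrays (log2 -1.26, SE 0.16, adjusted p = 7.63e-06). EXPA4, one of the expansins, which loosen walls, had 150.0, 126 and 143 with mock and 71.1, 91 and 85.5 with safener (log2 -0.76, SE 0.15, adjusted p = 0.000722). EXPA8 had 355, 310.5 and 317 with mock and 211, 218 and 155 with safener (log2 -0.76, SE 0.16, adjusted p = 0.00106). CSLA03, of the mannan synthase group, had 110.4, 104 and 91.3 with mock and 56.9, 68.7 and 72.6 with safener (log2 -0.63, SE 0.12, adjusted p = 0.000609). The safener arrays of all 4 lay below the mock arrays. EXGT-A3 and EXLB1 were not called (log2 -0.22 and -0.08). Some members were listed in 1 group alone: GH9B8 and EXLA2 on all mock arrays and no safener array, and XTH29 and XTH18 the reverse.

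Of 7 tubulin genes 4 fell and 0 rose, and the same numbers were found without any 1 array. TUB1 was listed at intensities of 164, 121 and 138 on the mock arrays and 33.6, 76.9 and 48.3 on the safener arrays. Replicate 1 was the highest mock array and the lowest safener array, and replicate 2 of each group the nearest to the other group (log2 -1.48, SE 0.22, adjusted p = 5.29e-05). TUB5, TUB6 and TUB7 fell by less, with 972, 986 and 1004 with mock and 487, 754 and 631 with safener for TUB5 (log2 -0.68, adjusted p = 0.00128). TUB6 had log2 -0.63 and TUB7 log2 -0.59. TUA6 and TUB9 (log2 0.15) had overlapping groups. Tubulin genes are similar in sequence, and probes may bind more than 1 of them. Of 16 members of the TBL family, which acetylates wall polymers, 4 fell and 2 rose, with TBL25 at 256, 284 and 304 with mock and 134, 180.2 and 188 with safener (log2 -0.76, SE 0.16, adjusted p = 0.00113). Both increases in that family, TBL34 (log2 0.64) and AT2G31110 (log2 0.50), were lost without mock replicate 1. TBL34 was also lost without mock replicate 2 or safener replicate 2 (adjusted p of up to 0.125), and AT2G31110 without safener replicate 1 (adjusted p = 0.121). In the same family 2 members fell without safener replicate 3 or mock replicate 3. Of 6 lipid transfer protein genes 3 fell, and 2 fell without safener replicate 2 or 3 or mock replicate 1 or 2. AT4G12500, which codes for an azelaic acid-induced type of the family, had 101, 149 and 131 with mock and 62.7, 71.9 and 58.2 with safener (log2 -0.97, SE 0.25, adjusted p = 0.00634), and its neighbour AT4G12490 (log2 -0.66) lost its call in 8 alternatives (adjusted p of up to 0.165).

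Of 12 nuclear genes of photosynthesis tested 4 fell and 0 rose, with a median log2 change of -0.20. LHCB4.2, an antenna protein of photosystem II, was listed at intensities of 4440.4, 3635 and 3894 on the mock arrays and 1873, 2863 and 2581 on the safener arrays (log2 -0.73, SE 0.15, adjusted p = 0.000962). Its paralogue LHCB4.1 was not called, at 6568, 6336 and 6713 with mock and 5014, 5963 and 5858 with safener (log2 -0.22). PSB27, a repair factor of the same photosystem, was lower by log2 -0.43 (adjusted p = 0.00675), and PSAN and LPA19 were lower with calls lost in 2 and 4 alternatives, for PSAN without safener replicate 1 (adjusted p = 0.0514) among them. In tetrapyrrole synthesis, HEMA2, a glutamyl-tRNA reductase, rose from 146, 127 and 119.7 with mock to 179, 266 and 242 with safener (log2 0.79, SE 0.15, adjusted p = 0.00043). PORB, which reduces protochlorophyllide in the light, fell, at 2922, 3162 and 3048 with mock and 1857, 2545 and 2317 with safener (log2 -0.45, SE 0.11, adjusted p = 0.00407). Of 8 genes of that list 3 fell, and 1 fell without mock replicate 3. The paralogous decarboxylases HEME1 and HEME2 were the other two, and each lost its call in at least 4 alternatives, HEME1 without safener replicate 1 (adjusted p = 0.189) among them.

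Plastid-encoded transcripts were lower with safener on 2 of the 3 safener arrays and near the mock level on the third. Plastid RNA mostly lacks long poly(A) tails, and the labels state that cDNA was primed with oligo-dT. Of 69 plastid genes tested 16 fell and 0 rose, with a median log2 change of -0.43. The median log2 distance from the mock mean over these genes was 0.22, -0.12 and -0.11 on the mock arrays and -0.89, -0.0045 and -0.56 on safener replicates 1, 2 and 3. On safener replicate 1, 52 genes were below all mock arrays, on replicate 3 it was 59, and on replicate 2 it was 11. The count of lowered plastid genes was 2 without safener replicate 1, 39 without replicate 2, 6 without replicate 3, 1 without mock replicate 1 and 10 without mock replicate 3. RNA quality, the labelling reaction and the treatment were not tested as sources of that spread.

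psbC, for a chlorophyll protein of photosystem II, was listed at intensities of 2071, 1400.4 and 1447 on the mock arrays and 322, 1398 and 549.8 on the safener arrays (log2 -1.36, SE 0.39, adjusted p = 0.0128). Leaving out safener replicate 1 or mock replicate 1 ended the call for psbC (adjusted p of up to 0.093). psaA, for a core subunit of photosystem I, was more even, at 1209.8, 1290.3 and 1166 with mock and 642, 738 and 452 with safener (log2 -1.03, SE 0.19, adjusted p = 0.000429), with all safener arrays below mock. matK, for a maturase of plastid introns (log2 -1.29), and atpF, for an ATP synthase subunit (671, 405 and 398 with mock and 199, 369.9 and 184 with safener), lost their calls without mock replicate 1, matK also without safener replicate 1 (adjusted p = 0.0964) and atpF without safener replicate 3. The next 2 genes were chosen after their values were seen. psbA, for the D1 protein, was listed at intensities of 4076, 3440.3 and 3529.8 on the mock arrays and 3522 and 234 on the safener arrays, with replicate 1 blank and replicate 3 the low value, and its SE of 1.48 left it uncalled (log2 -2.02). psbT, for a small subunit, was higher on the safener arrays, at 21.7, 9.1 and 11.3 with mock and 88.5, 31.8 and 24.7 with safener, and was not called (log2 1.65, adjusted p = 0.0995).

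**Figure D4:**
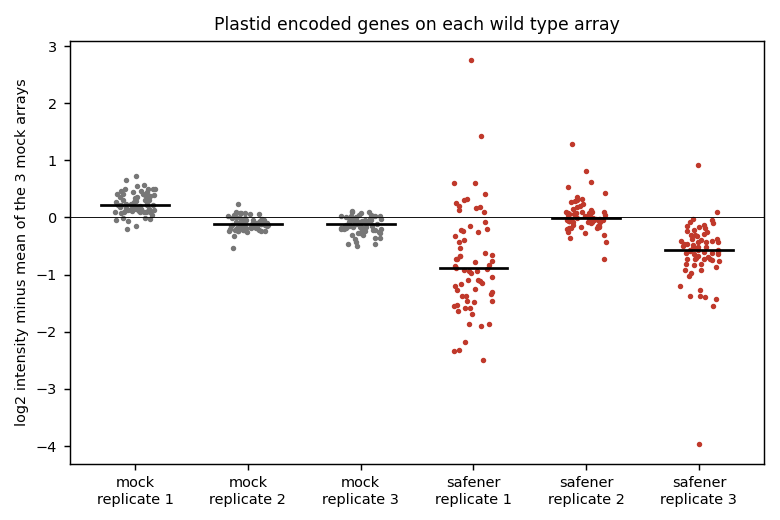
Plastid-encoded genes on each wild type array. The y axis is the log2 intensity of a gene minus its mean over the 3 mock arrays, points are genes (grey mock, red safener, shifted sideways at random), and black bars are medians over up to 69 genes. The bar lies at -0.89 for safener replicate 1 and at -0.56 for replicate 3, while replicate 2 lies at the level of mock.

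Probe sets that were blank throughout 1 group have no fold change. Of 22746 probe sets, 90 (0.396%) were listed on all 3 safener arrays and on no mock array, and 64 (0.281%) on all 3 mock arrays and on no safener array. The safener-only probe sets had mean intensities of 11.2 to 536 (median 55.9), with 19 above 100, and the mock-only ones 14.3 to 201 (median 37.9), with 5 above 100. A blank does not show that a transcript is absent. Among the 55 safener-only probe sets that name 1 gene, the highest was AT1G53540, a cytosolic small heat shock protein, at 292, 353 and 367. CXE20, of the carboxylesterase family, was listed at 251, 254 and 301. AT1G54890, of the late embryogenesis abundant family, was listed at 175, 179.6 and 265. AT1G19200, AT3G52360 and AT1G53620 had means of 168, 164 and 148.

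Of the 39 mock-only probe sets that name 1 gene, AT1G64430 was listed at 169, 167 and 167 on the mock arrays. GH9B8, an endoglucanase of the wall list, was listed at 141, 109.8 and 119. The leucine-rich repeat protein gene AT5G12940 was listed at 96.7, 122 and 109.6. All of these values lay below the array median of 200. AT2G23950, a leucine-rich repeat receptor kinase, AT4G00520, an acyl-CoA thioesterase family gene, and AT4G11290, a peroxidase, had mock means of 103, 73.5 and 70.1. Without safener replicate 1 the safener-only count was 157, and without safener replicate 2 the mock-only count was 174.

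The same probe sets were read on the arrays of the 2 mutants, which share no array with wild type. Calls in the mutants came from the same fit, however, in which the variance of a probe set was estimated over the arrays of all genotypes. Choosing probe sets called in wild type favours those with a small shared variance, which also favours a call in the mutants. The shares called below are therefore not independent of that choice. In tga2tga3tga5tga6, which lacks several TGA factors, 384 of the 433 probe sets measured, of the 440 raised at least 2-fold in wild type, were called higher (88.7%, beside 8.81% of all probe sets there) and 0 lower. Their median log2 change was 0.99 there and 1.33 in wild type. In sid2-2, a line without the isochorismate synthase of stress-induced salicylic acid, 412 of 436 were called higher (94.5%, beside 13%) and 2 lower, with medians of 1.24 and 1.34. The probe sets were chosen for being large in wild type, so a smaller median elsewhere is no test. The difference of the responses was tested too, but it uses the wild type values that chose these probe sets. It was smaller for 38 in tga2tga3tga5tga6 (0.426% of all probe sets had a lower response there) and for 5 in sid2-2 (0.0826%), and larger for 0 in either, where 0.0412% and 0.0207% of all probe sets had a higher response. Of the 111 lowered ones, 84 of 109 were called lower in tga2tga3tga5tga6 (77.1%, beside 10.3%) and 95 of 106 in sid2-2 (89.6%, beside 19.6%).

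**Figure D5:**
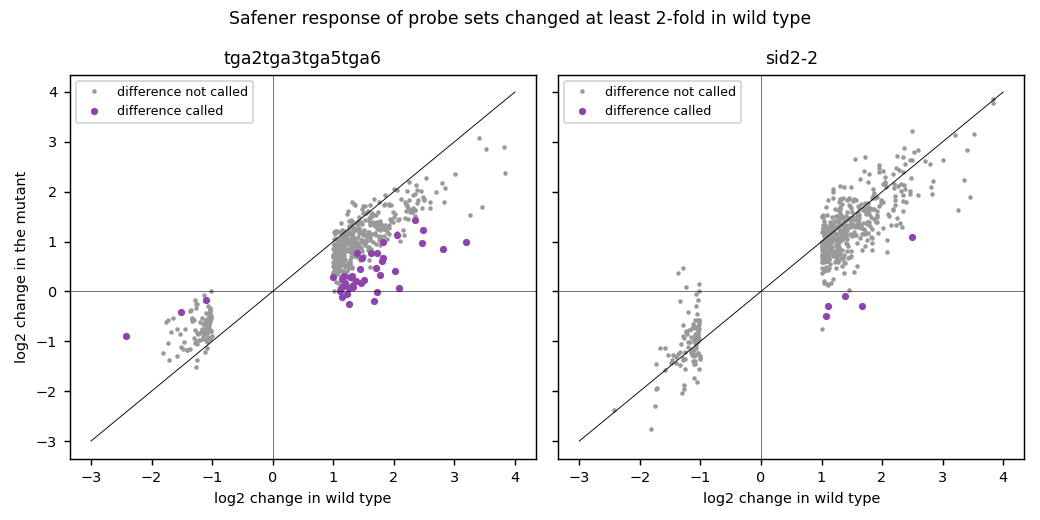
The log2 safener change in each mutant (y axis) against that in wild type (x axis) for the probe sets changed at least 2-fold in wild type, with tga2tga3tga5tga6 on the left and sid2-2 on the right. Points are probe sets, purple where the difference of the responses was called, and the line marks equal change. Of the raised ones 38 are purple on the left and 5 on the right.

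Among the named genes, AT1G30700 had log2 2.90 in tga2tga3tga5tga6 and 3.79 in sid2-2, and neither difference from wild type was called (adjusted p = 0.235 and 0.974). TUB1 had log2 -1.15 and -1.44, and the differences were not called (adjusted p = 0.867 and 0.97). IAGLU rose by less in tga2tga3tga5tga6 than in wild type, with log2 0.97 against 2.46 (adjusted p = 0.00427 for the difference).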

How the data were processed

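Per the submitters' processing notes, the authors made the deposited values with RMA, for which no version is given. The values are intensities on a linear scale, 1 per probe set and array of the Affymetrix ATH1 type, and their median over the listed values of each array is 200. Part of the values is blank, for a reason not given in the sources used here. The genome build was not given either. No column of values was left out.

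Deposited intensities were converted to log2, blanks stayed missing, and 64 array controls were removed, leaving 22746 probe sets. The annotation used named 1 gene for 13513, several for 503 and none for 8730, whose results are only counted. Probe sets with at least 2 listed values in each group were tested in limma 3.58.1 (R 4.3.3) with lmFit and eBayes, fitted to the 6 group means of all 18 arrays, with Benjamini-Hochberg adjustment over all probe sets tested and a threshold of 0.05. The labels call the 3 samples of a group biological, without saying how plants were pooled. The precision is limited by the number of arrays. Where given, an SE belongs to the log2 change before it and an SD to a mean intensity, and some values are given without either. Samples were grouped by their titles. The fit was tested on simulated data.

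The comparison, whose arrays are set by their titles, and the 46 gene lists were chosen with earlier results of these data known, and 44 lists had a member with a gene name. After values had been seen, 4 genes were taken off 3 lists because they belong to other families: 2 peptide deformylases, a protease and a hydrolase. Lists are described by counts and medians, with no test. The rule for named genes took, among probe sets of 1 gene, the 15 largest called increases and 12 largest called decreases with groups that did not overlap, the 6 highest genes listed in only 1 group in each direction, and from each list up to 4 called members with the smallest adjusted p and the 2 most abundant not called. Other list members named in the text were chosen after their values were seen. Where a gene had several probe sets, the brightest on average stands for it.

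Alternatives were the 6 wild type arrays alone, filters on low values and on blanks, blanks set to the 10th percentile of the array, 2 scalings, array weights, another moderation, a replicate block and leaving out each array.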

Additional observations from a re-analysis of the deposited data

Results flagged for a closer look

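The safener responses of 8 genes named above differed between a mutant and wild type by a test of the difference itself (limma, Benjamini-Hochberg over all probe sets tested in that difference). The difference uses the same wild type arrays that led to these genes being named, and no explanation was tested.

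In tga2tga3tga5tga6 the response of the peroxidase gene AT4G33420 was lower than in wild type by log2 -1.965 (SE 0.302, adjusted p = 0.00389), with log2 0.85 there and 2.82 in wild type. That of the reductase family gene AT1G09500 was lower by log2 -1.594 (adjusted p = 0.00801, 0.42 against 2.01). IAGLU (AT4G15550) differed by log2 -1.488 (adjusted p = 0.00427, 0.97 against 2.46), the reductase AT3G04000 by log2 -0.9874 (adjusted p = 0.046, 0.28 against 1.27) and the MATE transporter AT1G71140 by log2 -0.9165 (adjusted p = 0.0372, 1.44 against 2.35). LUP5 (AT1G66960), which fell in wild type by log2 -1.51, gave log2 -0.41 in this mutant, a difference of 1.091 (adjusted p = 0.0201). The levels of 2 of these genes stand beside the changes, with no test between the mock groups. AT4G33420 had 17.7 ± 1.77 with mock and 32.1 ± 4.17 with safener there, against 37.6 and 261 in wild type, and IAGLU had 41.8 ± 1.87 and 82.9 ± 13.9, against 94.7 and 535 (means, SD, n = 3).

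In sid2-2 the MATE transporter AT3G23550 gave log2 -0.09, against 1.39 in wild type, a difference of -1.487 (SE 0.188, adjusted p = 0.00183). The peroxidase Prx37 (AT4G08770) gave log2 -0.30 against 1.67, a difference of -1.972 (adjusted p = 0.0449). The mock levels of the genotypes were not tested against each other. AT3G23550 had 1798 ± 109 with mock and 1685 ± 96.1 with safener there (mean ± SD, n = 3), against 309 and 811 in wild type, and Prx37 had 367 ± 171 and 288 ± 88.5, against 81.5 and 259.5.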

How the results depend on the processing

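Across 10 alternatives with all 3 arrays of each group kept, the probe sets called higher numbered 1884 to 3068 and those called lower 1748 to 3805, with array weights giving the highest counts and the 6 wild type arrays alone the lowest. At least 2-fold, the counts were 404 to 491 higher and 100 to 142 lower. Without 1 array they were 1765 to 2113 higher, 1700 to 2901 lower, 397 to 465 at least 2-fold higher and 78 to 174 at least 2-fold lower, the last without safener replicate 2. Listing on 2 or more arrays of a group and none of the other gave 215 safener-only and 170 mock-only probe sets, and leaving out 1 array gave 117 to 157 and 78 to 174. That construction asks for fewer arrays. The highest counts came without safener replicate 1 and safener replicate 2, and the cause was not tested. With safener replicate 2 left out, the median of the plastid genes was log2 -0.65. This and the counts of list members without safener replicate 1 were chosen after seeing the data.

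The replicate numbers did not pair the samples: deviations of same-numbered mock and safener arrays from their group means correlated at 0.126, -0.137 and 0.261, and not every array correlated best with its own number. With the number as a replicate block, 2162 were higher and 2531 lower. Of 204 named genes tested, 130 were called, 105 of them under each of the 16 settings in which they could be tested and 25 not under at least 1. No called gene changed direction. The number of arrays and the blanks limit what could be seen. The count of motif letters in promoters that was planned was not run.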
